A study of Homo sapiens with 16 samples.

Results

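The genes of the bone morphogenetic protein (BMP) signal described here are 10: the ligand genes BMP2, BMP4 and BMP7, the target genes ID1, ID2, ID3 and ID4, and the genes of 3 inhibitors, SMAD6, SMAD7 and BAMBI. They were chosen by symbol, and each had 1 row among the 20166 symbols of the table. The RNA was poly-A selected and came from RWPE1, an immortal cell line derived from normal human prostate epithelium, with basal features. For over-expression, 6 libraries came from cells with a wild-type construct and 4 from cells with its T164A mutant, and the control cells carried an empty vector made from an altered pTRIPZ (6 libraries). The labels do not say whether the libraries of a group came from separate cultures or from 1 engineered population, and every p-value given here measures just how libraries of a group spread, which may be technical.

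BMPs are secreted ligands that bring together type I and type II receptor kinases, which phosphorylate SMAD1, SMAD5 and SMAD9. These enter the nucleus with SMAD4 and activate target genes, among which the ID genes are the best known. ID proteins have a helix-loop-helix domain but no DNA-binding region, so they hold E proteins such as TCF3 and TCF4 off DNA and thereby restrain differentiation. SMAD6, SMAD7 and the pseudoreceptor BAMBI dampen the signal and are themselves induced by it. In the prostate, BMP4 and BMP7 are known as ligands of the developing gland that limit its ductal growth and branching.

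Values are the deposited log2 values. A level of 2.30 is taken here as the floor, the level that 3 reads would have if the read steps seen at high values held at low ones. Estimated depth was 12300000 to 19200000 reads per library. Differences are in log2 units with their limma standard error (SE), and a gene was called at an adjusted p below 0.05. All 10 genes had a group mean above the floor in each of the groups, although ID4 and BMP4 lay close to it in wild type and vector. Values below 0 occur too (KLK3 was at -0.22 in T164A replicate 91), so the form of the scale at low levels is not known and the floor is nominal. For a gene with a vector mean below the floor, "at least" gives the difference from 2.30. It is not a statistical limit, and single vector libraries can lie above the floor, as for NOG and INHBB, which had just 2 below it. Values are not per length, so levels are compared between genes only where a length is named.

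The libraries did not hold equal marker levels. Over all symbols, 21.0% were called higher and 24.5% lower in wild type against vector. The shares were 37.1% higher and 27.2% lower in libraries labelled T164A against vector. Of 12 luminal prostate markers, all 12 rose in wild type against vector, with a summed linear level of 54969 to 112897 in wild type and 1183 to 2268 in vector (limma). The means of KLK3, KLK2, TRPM8 and HPN, among others, lay below the floor in vector. Of 12 basal markers, 10 fell and 1 rose in wild type, with sums of 158274 to 216493 in wild type and 245177 to 290833 in vector. In the libraries labelled T164A, 7 of the 12 basal markers fell and 2 rose against vector, with sums of 143428 to 163633 in those libraries, and KRT5, KRT14 and TP63 were present, at means of 15.46, 14.31 and 11.16. Of the luminal markers 6 rose and 2 fell there, with sums of 3658 to 3951 in libraries labelled T164A. There 10 of 12 mesenchymal markers rose and 2 fell, with sums of 20332 to 22418 in libraries labelled T164A and 5230 to 6661 in vector. Of 12 embryonic kidney markers, 9 rose and 1 fell, with sums of 2974 to 3206 in libraries labelled T164A and 528 to 686 in vector. The means of PAX2, SALL1, WT1, CDH6, EMX2 and GDNF lay below the floor in vector, and those of PAX8 and CDH6 in libraries labelled T164A. The part these markers play in the results that follow was not tested. In bulk RNA, fewer cells of a type and less RNA per cell cannot be told apart.

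In wild type against vector, 6 of the 10 genes fell and 0 rose (limma), where 45.5% of all symbols were called, 24.5% lower and 21.0% higher. Of the 8 genes with a mean of at least 6, 6 fell, where 38.7% of the symbols at that level fell. The falls were of modest size, and none of them reached 2-fold. In either direction, 8.89% of all symbols were called at 2-fold or more. The median difference over the 10 genes was -0.47, beside -0.05 over all symbols and -0.53 over the basal markers. For 5 genes the ranges of wild type and vector did not overlap, where 29.4% of all symbols had no overlap. In libraries labelled T164A against vector, 7 of 10 rose and 2 fell, where 64.4% of all symbols were called, 37.1% higher and 27.2% lower. Of the 8 genes with a mean of at least 6, 7 were called in either direction, where 83.8% of symbols at that level were, so the share of genes called is near its background. By direction, 5 of these 8 rose and 2 fell, where 5275 of the 11167 symbols at that level were higher and 4086 lower. For 9 genes the ranges did not overlap, where 55.5% of all symbols had no overlap. In size, 7 of the 10 genes differed by 2-fold or more, where 33.1% of all symbols did. The 2-fold shares given here cover symbols at every level, also those near the floor. Wild type and libraries labelled T164A differed in 9 of 10 genes, 2 higher and 7 lower in wild type, where 61.8% of all symbols were called, 26.7% higher and 35.1% lower. Of the 8 genes with a mean of at least 6, 7 differed there, where 79.9% of symbols at that level did. Of these 8, 2 were higher and 5 lower in wild type, where 3774 of the 11167 symbols were higher and 5153 lower. The ranges of 9 genes did not overlap (52.4% of all symbols), and 7 genes differed by 2-fold or more (28.8% of all symbols). Both comparisons with vector share its 6 libraries.

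**Figure D1:**
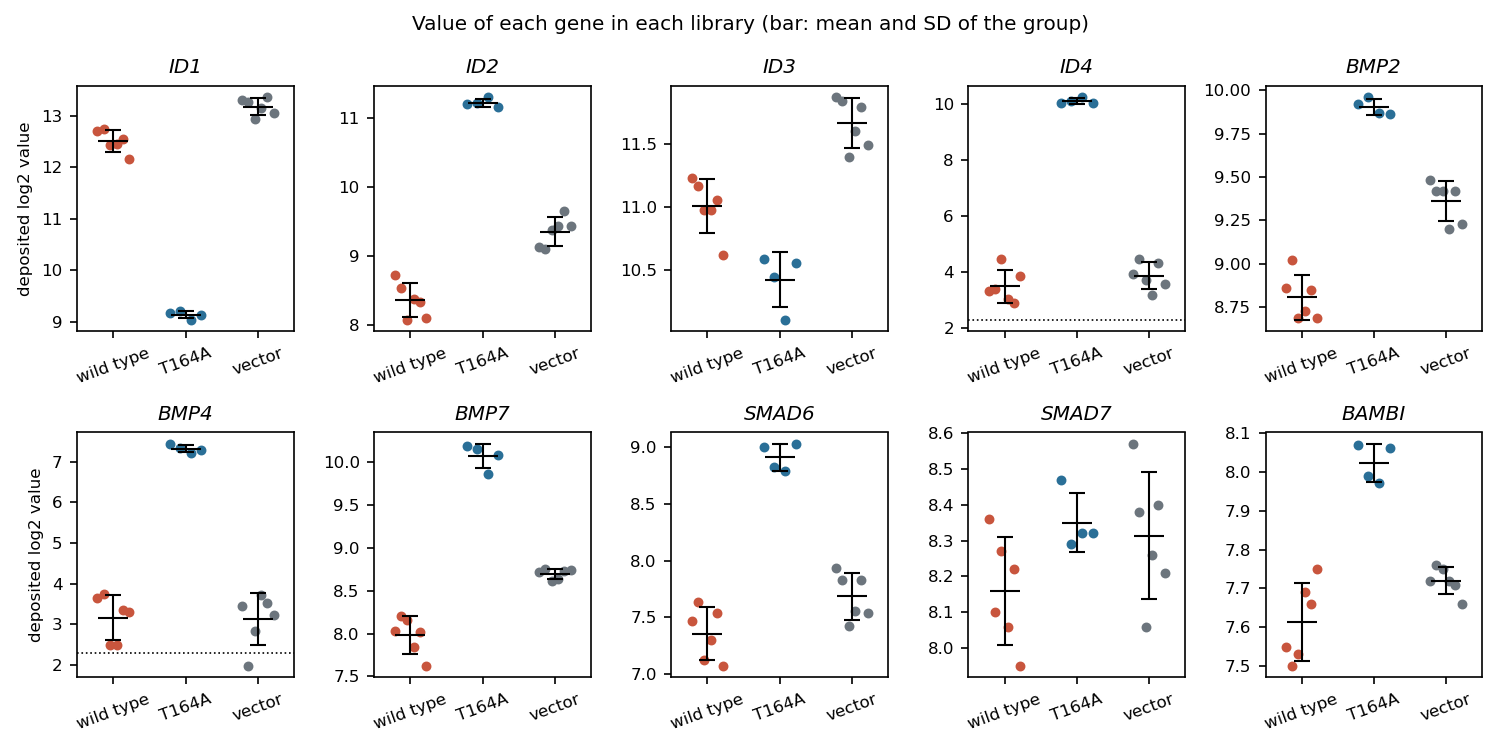
Deposited log2 value (vertical axis, a separate range for each gene) of the 10 genes in each of the 16 libraries, by group, with the group mean and SD as a black bar and the nominal floor as a dotted line for ID4 and BMP4. ID1 in the libraries labelled T164A sits between 9.04 and 9.21, below every other library, while ID4 sits between 10.02 and 10.24, above every other library.

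The 3 ligand genes were all higher in the libraries labelled T164A. BMP4 was at 7.44, 7.34, 7.21 and 7.29 in the libraries labelled T164A, against a lowest, median and highest value of 2.48, 3.32 and 3.74 in wild type and 1.97, 3.34 and 3.72 in vector. The libraries labelled T164A thus lay far above the rest, and wild type and vector overlapped throughout their ranges. The difference from vector was 4.20 (SE 0.33, limma adjusted p = 1.23e-11). Wild type differed from vector by 0.04 (95% interval -0.56 to 0.64, limma adjusted p = 0.929). The sign of that difference turned without wild-type replicate 13 (-0.05) or 14 (-0.07), or without vector replicate 2 (-0.19) or 3 (-0.01).

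BMP7, a ligand that is made by many epithelia, followed an order of libraries labelled T164A above vector above wild type. It was at 10.18, 10.15, 9.86 and 10.08 in libraries labelled T164A, at 7.62, 8.03 and 8.21 (lowest, median and highest) in wild type, and at 8.61, 8.73 and 8.75 in vector. No ranges overlapped. In libraries labelled T164A it was 1.37 above vector (SE 0.09, limma adjusted p = 8.15e-13), and wild type lay below vector by 0.72 (difference -0.72, SE 0.08, limma adjusted p = 8.15e-08). The direct difference of wild type from libraries labelled T164A was -2.09 (SE 0.09, limma adjusted p = 2.72e-16).

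BMP2, a close relative of BMP4 that binds the same receptors, kept the same order with smaller steps. Its values were 9.92, 9.96, 9.87 and 9.86 in libraries labelled T164A, 8.69, 8.79 and 9.02 (lowest, median and highest) in wild type, and 9.20, 9.42 and 9.48 in vector. Here too the groups did not overlap. Against vector, BMP2 rose by 0.54 in libraries labelled T164A (SE 0.07, limma adjusted p = 3.32e-07) and changed by -0.56 in wild type (SE 0.07, limma adjusted p = 1.17e-07). Per kb of annotated exon, the 3 ligands together were at 595 ± 35.2 normalised reads in libraries labelled T164A (SD, n = 4), 188 ± 19.1 in wild type and 284 ± 15 in vector (n = 6 each). BMP2 made up 43% to 47.3% of that sum in libraries labelled T164A, 62.4% to 69.5% in wild type and 61.3% to 66.6% in vector, and BMP4 made up 12.3% to 13.1% in libraries labelled T164A, 0.966% to 2.58% in wild type and 0.332% to 2.04% in vector, where the wild-type and vector shares of BMP4 rest on values near the floor.

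**Figure D2:**
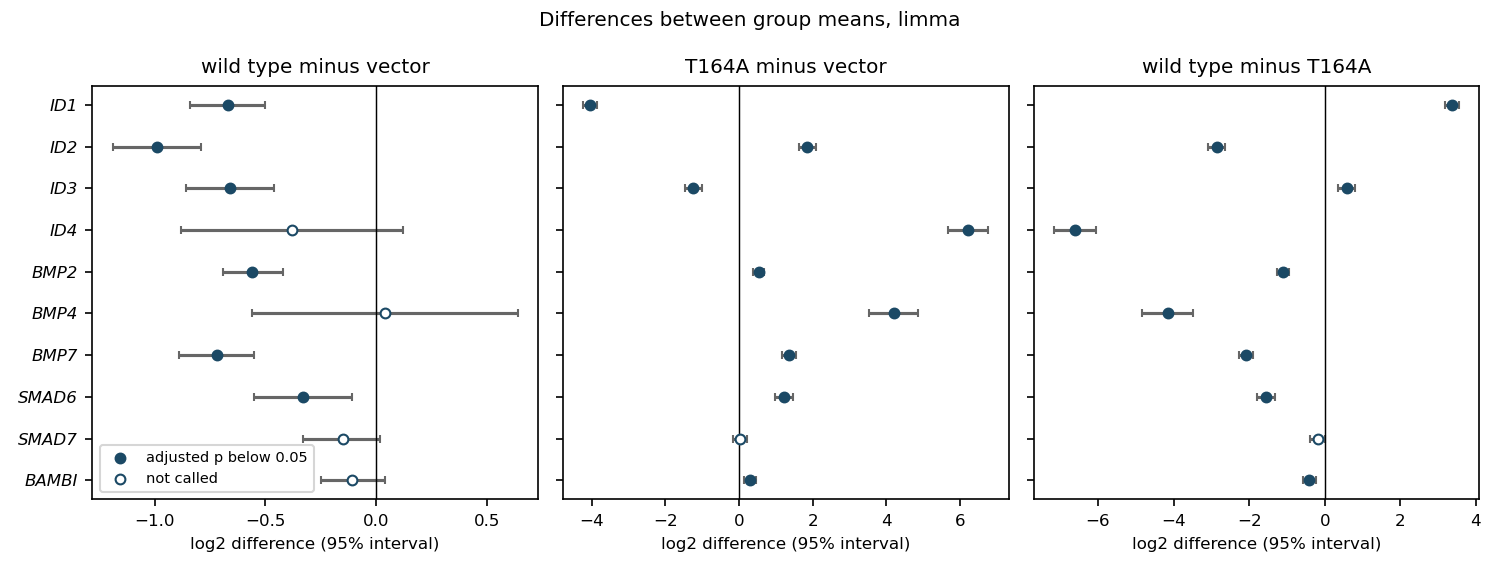
Difference of group means for each gene (log2 units, horizontal axis) with its 95% limma interval, in wild type minus vector, T164A minus vector and wild type minus T164A. Filled points have an adjusted p below 0.05. In wild type minus vector the called genes lie between -0.99 and -0.33, while T164A minus vector runs from -4.04 for ID1 to 6.23 for ID4.

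The ID genes did not move as 1 family in the libraries labelled T164A: ID1 and ID3 fell and ID2 and ID4 rose. The bases upstream of their transcript starts are shown because these genes are the main readout of the signal and went in opposite directions. Each sequence is the 250 bases before the annotated start, from RefSeq on GRCh38.p14, with matches to TATAAA, the core of the TATA box, in capitals. The windows lie at chr20:31605039-31605288 (plus strand) for ID1, chr2:8681806-8682055 (plus strand) for ID2, chr1:23559502-23559751 (minus strand) for ID3 and chr6:19837120-19837369 (plus strand) for ID4.
ID1: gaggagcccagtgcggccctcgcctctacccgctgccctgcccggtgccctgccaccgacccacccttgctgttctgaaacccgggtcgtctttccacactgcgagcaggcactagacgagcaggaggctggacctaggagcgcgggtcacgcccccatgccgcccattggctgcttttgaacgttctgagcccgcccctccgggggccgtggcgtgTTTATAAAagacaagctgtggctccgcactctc
ID2: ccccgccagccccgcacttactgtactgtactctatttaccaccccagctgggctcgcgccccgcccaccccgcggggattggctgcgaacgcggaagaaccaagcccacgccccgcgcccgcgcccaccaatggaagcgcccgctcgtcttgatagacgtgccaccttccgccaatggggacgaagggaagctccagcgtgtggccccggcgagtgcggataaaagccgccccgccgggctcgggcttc
ID3: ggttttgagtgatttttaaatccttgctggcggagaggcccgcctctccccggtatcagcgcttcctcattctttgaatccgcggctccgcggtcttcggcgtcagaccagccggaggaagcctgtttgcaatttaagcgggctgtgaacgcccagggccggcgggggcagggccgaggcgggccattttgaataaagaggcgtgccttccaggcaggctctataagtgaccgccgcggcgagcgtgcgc
ID4: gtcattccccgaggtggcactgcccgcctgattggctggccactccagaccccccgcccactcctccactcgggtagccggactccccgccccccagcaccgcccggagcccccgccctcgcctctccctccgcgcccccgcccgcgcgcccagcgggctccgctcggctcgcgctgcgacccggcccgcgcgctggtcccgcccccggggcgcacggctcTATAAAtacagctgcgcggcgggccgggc
TATAAA was searched on both strands. It was found in ID1, where a match on each strand overlaps and the nearer begins 31 bases before the start, and in ID4, 29 bases before the start. Only exact matches were searched, so variants of the TATA box in the ID2 and ID3 windows were not counted. Of the genes with a match, ID1 fell and ID4 rose in libraries labelled T164A. Of 35116 windows of this length in the table, 10.7% hold it. GGCGCC, the GC-rich element bound by BMP-activated SMADs, was in none of the 4 ID windows and in 16.4% of all windows. It was found in the windows of BAMBI and BMP4. A match is a description of these letters, and the distal elements of the ID genes lie outside the windows.

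ID1, the ID gene most closely tied to BMP signalling, showed the largest fall of the 10 genes. It was at 9.16, 9.21, 9.04 and 9.14 in libraries labelled T164A, at 12.15, 12.49 and 12.75 (lowest, median and highest) in wild type, and at 12.94, 13.21 and 13.36 in vector. The 3 ranges were apart, with libraries labelled T164A lowest and vector highest. Against vector ID1 changed by -4.04 in libraries labelled T164A (SE 0.09, limma adjusted p = 4.21e-22), a level 16.4 times lower, and by -0.67 in wild type (SE 0.08, limma adjusted p = 2.12e-07), 1.59 times lower. Wild type exceeded libraries labelled T164A by 3.37 (SE 0.09, limma adjusted p = 1.95e-20).

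ID3, which is often induced together with ID1, had the same order with smaller gaps. Its values were 10.59, 10.45, 10.11 and 10.56 in libraries labelled T164A, 10.62, 11.02 and 11.23 (lowest, median and highest) in wild type, and 11.40, 11.69 and 11.87 in vector. The highest library labelled T164A lay just under the lowest wild-type library, replicate 18, so the groups were apart by a narrow margin. ID3 changed by -1.24 against vector in libraries labelled T164A (SE 0.11, limma adjusted p = 1.26e-10) and by -0.66 in wild type (SE 0.10, limma adjusted p = 3.17e-06). Wild type exceeded libraries labelled T164A by 0.58 (SE 0.11, limma adjusted p = 4.02e-05).

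ID2, which can also bind the retinoblastoma protein, went the other way in the libraries labelled T164A. It was at 11.20, 11.21, 11.30 and 11.16 there, at 8.08, 8.36 and 8.72 (lowest, median and highest) in wild type, and at 9.10, 9.41 and 9.65 in vector. No ranges overlapped, and wild type was now the lowest group. ID2 rose by 1.86 against vector in libraries labelled T164A (SE 0.11, limma adjusted p = 3.7e-14). In wild type it changed by -0.99 (SE 0.10, limma adjusted p = 4.61e-09), the widest called gap of the 10 genes in that comparison. GENCODE 29 annotates an antisense gene, ID2-AS1, over ID2 exons, and with no strand stated for the counting, reads of the pair cannot be told apart.

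ID4, which in some settings opposes the other ID proteins, was near the floor outside the libraries labelled T164A. Its values were 10.02, 10.10, 10.24 and 10.03 in libraries labelled T164A, 2.89, 3.36 and 4.46 (lowest, median and highest) in wild type, and 3.17, 3.82 and 4.47 in vector. ID4 rose by 6.23 in libraries labelled T164A against vector (SE 0.27, limma adjusted p = 9.98e-17), the largest rise among the 10 genes. Wild type and vector overlapped, with a difference of -0.38 (95% interval -0.88 to 0.12, limma adjusted p = 0.217). That difference was called without wild-type replicate 15 (-0.57, limma adjusted p = 0.0373), without vector replicates 3, 4 and 6 (-0.76, limma adjusted p = 0.0258) and under quantile normalization (-0.76, limma adjusted p = 0.0128), and over all 21 alternatives its limma adjusted p ran from 0.0128 to 0.713.

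Per kb of annotated exon, a scale on which the 4 ID genes can be set beside each other within a library, their sum was 2997 to 3234 normalised reads in libraries labelled T164A, 5086 to 7592 in wild type and 8830 to 11744 in vector. The make-up of that sum was nearly the same in wild type and vector. ID1 was 71.8% to 73.4% of it in wild type and 71.3% to 72.7% in vector, and ID3 was 24.2% to 25.7% in wild type and 24.1% to 26.3% in vector. In the libraries labelled T164A, ID1 was 14.2% to 15.1%, ID2 33.7% to 39.2%, ID3 29.4% to 38.1% and ID4 13.7% to 17.2%. ID2 was 2.01% to 2.6% in wild type and 2.28% to 3.51% in vector, and ID4 was at most 0.137% in wild type and 0.0778% in vector, from values near the floor. These shares are ratios within a library, so a scaling factor of the library does not change them.

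**Figure D3:**
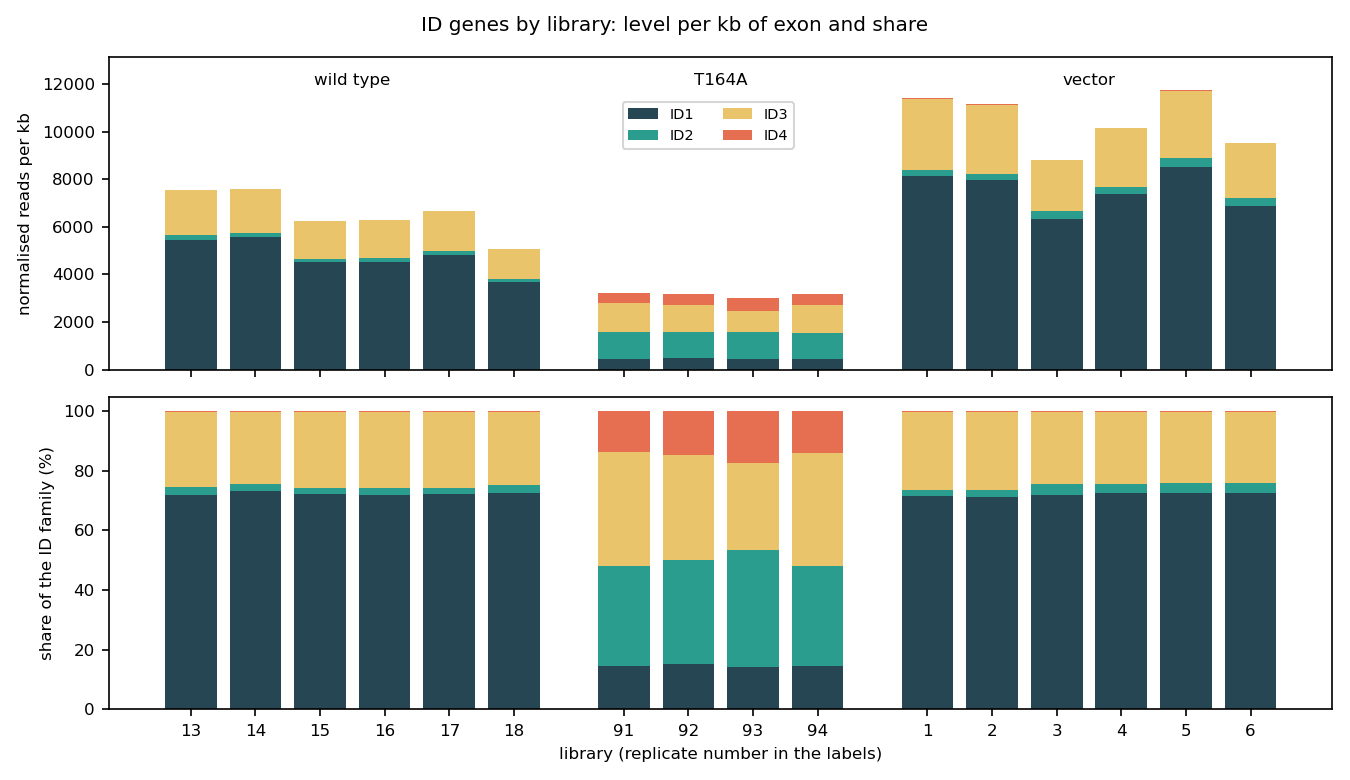
Normalised reads per kb of exon for ID1 to ID4 (upper panel, stacked) and the share of each in the sum of the 4 genes (lower panel, percent), for each library by group. In wild type and vector ID1 takes 71.3% to 73.4% of the sum, while in libraries labelled T164A it takes 14.2% to 15.1%.

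Among the inhibitors, SMAD6, which acts mainly on the BMP branch, changed most. It was at 9.0, 8.83, 8.79 and 9.03 in libraries labelled T164A, at 7.07, 7.38 and 7.64 (lowest, median and highest) in wild type, and at 7.42, 7.69 and 7.94 in vector. The libraries labelled T164A were above all others, while wild type and vector overlapped. SMAD6 rose by 1.23 in libraries labelled T164A against vector (SE 0.12, limma adjusted p = 7.15e-10). In wild type it changed by -0.33 (SE 0.11, limma adjusted p = 0.0116), a call that was lost when the libraries closest to each other within a group were averaged and counted as 1 (-0.20, limma adjusted p = 0.412) and when tested against a minimum fold of 1.2 (limma adjusted p = 0.628). Over all 21 alternatives the limma adjusted p of that difference ran from 0.000219 to 0.628. The window before the SMAD6 start is shown because it holds GTCTAGAC, the palindromic SMAD binding element, in capitals, at chr15:66701986-66702235 (plus strand, GRCh38.p14, RefSeq).
SMAD6: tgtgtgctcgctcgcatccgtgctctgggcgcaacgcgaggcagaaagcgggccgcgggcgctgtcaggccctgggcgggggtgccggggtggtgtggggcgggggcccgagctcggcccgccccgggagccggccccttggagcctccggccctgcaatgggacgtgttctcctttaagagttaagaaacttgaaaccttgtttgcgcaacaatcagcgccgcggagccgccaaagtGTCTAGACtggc
The match begins 12 bases before the start. GTCTAGAC was found in 64 of 35116 windows, 0.182%, and among the 12 windows of the 8 genes with an entry it was found in SMAD6 alone. The motif was chosen with the sequences in view, so this share is a description only.

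SMAD7, which acts on both the BMP and the TGF-beta branch, was called in none of the comparisons. Its values were 8.47, 8.29, 8.32 and 8.32 in libraries labelled T164A, 7.95, 8.16 and 8.36 (lowest, median and highest) in wild type, and 8.06, 8.32 and 8.57 in vector. All groups overlapped. The difference from vector was 0.03 in libraries labelled T164A (95% interval -0.16 to 0.23, limma adjusted p = 0.78) and -0.15 in wild type (95% interval -0.33 to 0.02, limma adjusted p = 0.151). The first of these turned to -0.27 under quantile normalization, which called it (limma adjusted p = 0.0115), and its sign also turned without T164A replicate 91 (-0.01) or vector replicate 3 (-0.02). The second was called under quantile normalization (-0.27, limma adjusted p = 0.00723) and without vector replicates 3, 4 and 6 (-0.29, limma adjusted p = 0.0197). Wild type differed from libraries labelled T164A by -0.19 (limma adjusted p = 0.0895), which was called without wild-type replicate 13 (-0.23, limma adjusted p = 0.0431) and with libraries weighted by their scatter (-0.18, limma adjusted p = 0.0448). Over all alternatives the limma adjusted p ran from 0.0115 to 1 in T164A against vector, from 0.00723 to 1 in wild type against vector and from 0.0431 to 0.986 in wild type against T164A.

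BAMBI, a receptor decoy without a kinase domain, was at 8.07, 7.99, 7.97 and 8.06 in libraries labelled T164A, at 7.50, 7.60 and 7.75 (lowest, median and highest) in wild type, and at 7.66, 7.72 and 7.76 in vector. The libraries labelled T164A were above all others by a narrow gap. Relative to vector they were 0.30 higher (SE 0.08, limma adjusted p = 0.00169), but the difference turned to -0.06 under quantile normalization (limma adjusted p = 0.524) and was not called with close libraries averaged (0.28, limma adjusted p = 0.0721), within a range of 0.000167 to 0.524 over 19 alternatives. Quantile normalization moved the median difference of symbols with a mean of at least 6 by -0.17 in this comparison. Wild type differed from vector by -0.11 (95% interval -0.25 to 0.04, limma adjusted p = 0.24), and this was called under quantile normalization (-0.28, limma adjusted p = 0.00128), within a range of 0.00128 to 1 over 21 alternatives. Wild type lay below libraries labelled T164A by 0.41 (difference -0.41, SE 0.08, limma adjusted p = 6.92e-05), which was -0.22 under quantile normalization (limma adjusted p = 0.0139) and was not called against a minimum fold of 1.2 (limma adjusted p = 0.0824, the highest of 18 alternatives, the lowest being 4.68e-06).

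Libraries of a group did not scatter independently from gene to gene. In vector, replicates 3, 4 and 6 were the 3 lowest libraries for ID1, ID3, ID4, SMAD6 and SMAD7, 5 of the 10 genes, an order seen in 16.9% of the 11167 symbols with a mean of at least 6. ID4 is not among the symbols at that level and lies near the floor in vector. For 0 of the 10 genes were replicates 3, 4 and 6 the 3 highest, an order seen in 9.04% of symbols. ID1, for example, was at 12.94, 13.15 and 13.05 in vector replicates 3, 4 and 6 and at 13.30, 13.26 and 13.36 in replicates 1, 2 and 5. The luminal marker KLK3 was at 3.76, 4.19 and 3.47 in vector replicates 3, 4 and 6 and at 0.01, 0.31 and 1.08 in replicates 1, 2 and 5, while the basal keratin KRT5 was at 16.93, 16.93 and 16.91 in replicates 3, 4 and 6 and at 17.16, 17.18 and 17.17 in replicates 1, 2 and 5. KLK3 and KRT5 thus split the vector libraries in the same place, though the KLK3 mean there lies below the floor. KRT14 split the same way, while the basal marker TP63 did not. TP63 was at 12.47, 12.38 and 12.40 in replicates 3, 4 and 6 and at 12.52, 12.54 and 12.40 in replicates 1, 2 and 5. Without vector replicates 3, 4 and 6, the fall of ID1 in wild type was -0.80 (-0.67 with all libraries) and that of ID3 -0.83 (-0.66). SMAD6 was at -0.51 (-0.33), BMP2 at -0.63 (-0.56) and BMP7 at -0.75 (-0.72), while the fall of ID2 shrank to -0.93 (-0.99).

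In wild type, replicate 18 was the lowest library for 6 genes (ID1, ID3, BMP2, BMP7, SMAD6 and SMAD7), as it was for 28.2% of symbols with a mean of at least 6. Replicate 14 was the highest for 5 genes (ID1, BMP2, BMP4, BMP7 and SMAD6), as it was for 32.5% of symbols. BMP4, like ID4, is not among the symbols with a mean of at least 6 and lies near the floor in wild type. KLK3 was at its highest in wild-type replicate 18 (15.50) and at its lowest in replicate 14 (14.35), and KRT5 the other way round, at 16.26 in replicate 18 and 16.72 in replicate 14. In the libraries labelled T164A, replicate 93 was the lowest for 6 genes and the highest for ID2 and ID4, but it was also the lowest for 42.9% and the highest for 43.0% of symbols. The part of these library differences in the group differences was not tested.

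**Figure D4:**
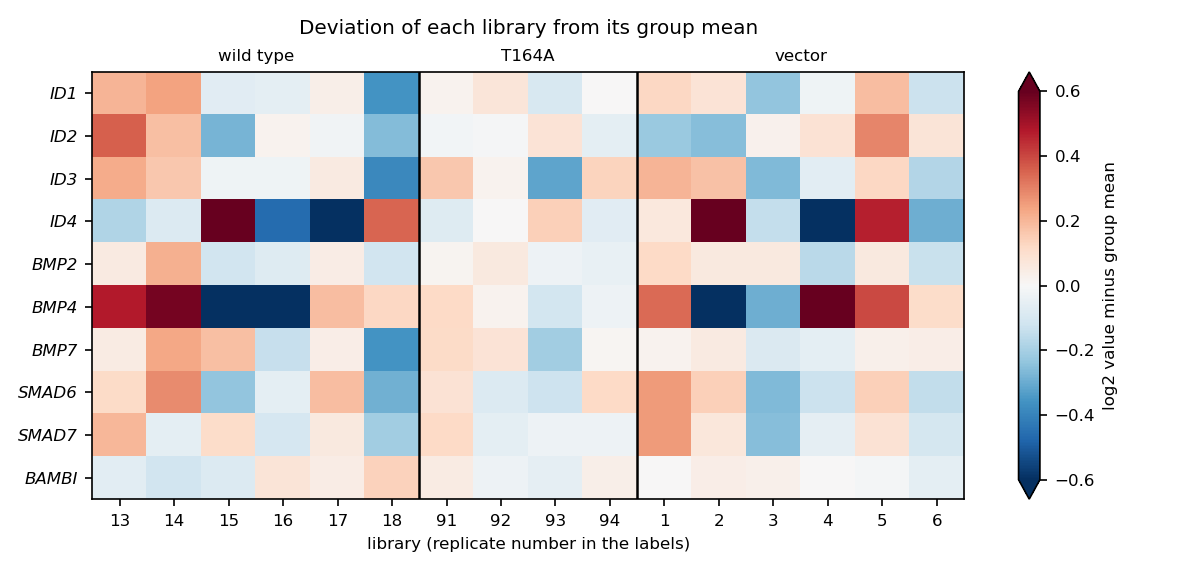
Deposited log2 value of each library minus the mean of its group (colour, saturated beyond 0.6) for the 10 genes (rows) in the 16 libraries (columns, by group). Vector replicates 3 and 6 are below their group mean for ID1, ID3, SMAD6 and SMAD7, and wild-type replicate 18 is below it for ID1, ID3, BMP7, SMAD6 and SMAD7; ID4 and BMP4 scatter most in wild type and vector, where they are near the floor.

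The rest of the pathway was described from lists of related genes, whose counts stand beside those of all symbols: 37.1% higher and 27.2% lower in libraries labelled T164A against vector, and 21.0% higher and 24.5% lower in wild type against vector. Among the 11167 symbols with a mean of at least 6, 5275 were higher and 4086 lower in libraries labelled T164A, and 3079 higher and 4321 lower in wild type. For lists made up mostly of genes at that level, the shares over all symbols are thus too low a background. Of 14 other BMP and GDF ligands, 6 were higher and 1 lower in libraries labelled T164A (limma), a share of higher genes near the 37.1% of all symbols, with a median difference of 0.54, or 0.01 with genes below the floor set to it. GDF11 rose by 2.67 (SE 0.10), BMP6 by 2.62 (SE 0.21), and GDF7, below the floor in all 6 vector libraries, by at least 4.97. GDF15, a stress-induced member of the superfamily, was at 8.61 ± 0.40 (SD, n = 4) in libraries labelled T164A, 13.49 ± 0.30 (n = 6) in wild type and 10.42 ± 0.16 (n = 6) in vector, so that it rose by 3.07 in wild type (SE 0.13) and changed by -1.81 in libraries labelled T164A (SE 0.14). In wild type 3 of these 14 ligand genes were higher and 1 lower, BMP8B, at -0.47 (SE 0.09).

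Secreted antagonists, which bind BMPs and keep them from receptors, were higher in 8 of 15 cases and lower in 2 in libraries labelled T164A against vector, where 37.1% of all symbols were higher and 27.2% lower, with a median difference of 1.09 (0.53 with genes below the floor set to it), beside 0.11 over all symbols. NOG, which encodes noggin, was at 7.41 ± 0.23 (SD, n = 4) in those libraries, at least 5.11 above its vector level. CHRDL1 rose by at least 4.74 and FSTL1, a follistatin relative, by 3.29 (SE 0.13). FSTL3 and NBL1 changed by -1.20 (SE 0.10) and -1.0 (SE 0.09). In wild type 3 antagonists were higher and 3 lower: FSTL1 rose by 0.61 (SE 0.11), while NBL1 changed by -0.75 (SE 0.08) and FST, which encodes follistatin, by -0.65 (SE 0.09).

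Receptors and co-receptors were called in both directions. In wild type 6 of 12 were higher and 5 lower, where 21.0% of all symbols were higher and 24.5% lower, with BMPR1B, a type I receptor, up by 1.58 (SE 0.09) and ACVR1, another, at -0.47 (SE 0.06). In libraries labelled T164A 4 were higher and 6 lower, where 37.1% of all symbols were higher and 27.2% lower. There BMPR1B changed by -0.86 (SE 0.10), while the co-receptor TGFBR3 rose by 2.65 (SE 0.09), the type II receptor ACVR2B by 4.07 (SE 0.20) and the co-receptor RGMA by 2.94 (SE 0.19). Wild type exceeded libraries labelled T164A in BMPR1B by 2.44 (SE 0.10, limma adjusted p = 2.75e-17).

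SMADs and their regulators were called in both directions. In libraries labelled T164A 3 of 12 were higher and 4 lower, with a median difference of 0.01, and in wild type 4 were higher and 5 lower, with a median of -0.15. SMAD9, a BMP-activated SMAD, rose by 1.66 (SE 0.08) in libraries labelled T164A and by 0.41 (SE 0.07) in wild type. SMAD1, whose protein BMP receptors phosphorylate, differed from vector by 0.02 in libraries labelled T164A (adjusted p = 0.879) and by -0.15 in wild type (adjusted p = 0.133), and SMAD5 by -0.15 in libraries labelled T164A (adjusted p = 0.101) and by -0.17 in wild type (adjusted p = 0.0502), none of them called by limma. SKIL, a co-repressor of SMADs that TGF-beta induces, changed by -1.63 (SE 0.09) in libraries labelled T164A and by -0.59 (SE 0.08) in wild type. Of the E proteins that ID proteins bind, TCF4 rose by 2.53 (SE 0.12) and TCF12 by 0.24 (SE 0.08) in libraries labelled T164A, and TCF3 changed by -0.28 (SE 0.07) in wild type.

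Other genes known as BMP targets were higher in 9 of 13 cases and lower in 2 in libraries labelled T164A, where 37.1% of all symbols were higher and 27.2% lower, with a median difference of 1.64. MSX1, a homeobox target, rose by at least 5.94 there, and the T-box genes TBX2 and TBX3 rose by 5.49 (SE 0.31) and 1.64 (SE 0.09), while DLX3 changed by -1.94 (SE 0.10). TBX2 lay near the floor in vector (mean 2.53), so the size of its rise is uncertain. In wild type 4 of the 13 were higher and 7 lower, where 21.0% of all symbols were higher and 24.5% lower, with a median of -0.51 (-0.23 with genes below the floor set to it), and TBX3 and GATA2 rose by 3.23 (SE 0.08) and 2.73 (SE 0.11). The TGF-beta targets were lower in 9 of 12 cases and higher in 3 in libraries labelled T164A (27.2% of all symbols lower, 37.1% higher), with a median of -1.20, and lower in 7 and higher in 2 in wild type (24.5% of all symbols lower, 21.0% higher), with a median of -0.38. CDKN2B, a cell cycle inhibitor, changed by -3.39 (SE 0.08) and TGFBI by -2.80 (SE 0.08) in libraries labelled T164A, while CDKN2B changed by -0.69 (SE 0.07) and TGFBI by -0.85 (SE 0.07) in wild type. Against that direction, FN1, which encodes fibronectin and is also in the mesenchymal marker list, rose by 1.84 (SE 0.12) and LTBP2 by 0.82 (SE 0.09) in libraries labelled T164A, and PMEPA1 rose by 0.45 (SE 0.05) in wild type. TGF-beta and activin ligands and receptors were higher in 5 and lower in 1 of 11 cases in libraries labelled T164A, a share of higher genes near the 37.1% of all symbols, and higher in 1 and lower in 5 in wild type, where 24.5% of all symbols were lower. The 1 rise in wild type was INHBB, an activin subunit, by at least 4.34, and TGFB1 changed by 0.51 (SE 0.10) in libraries labelled T164A and by -0.81 (SE 0.09) in wild type. The genes of these lists named with an SE or a bound in the pathway account were all called by limma with Benjamini-Hochberg adjustment, at adjusted p of 0.00816 or lower.

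**Figure D5:**
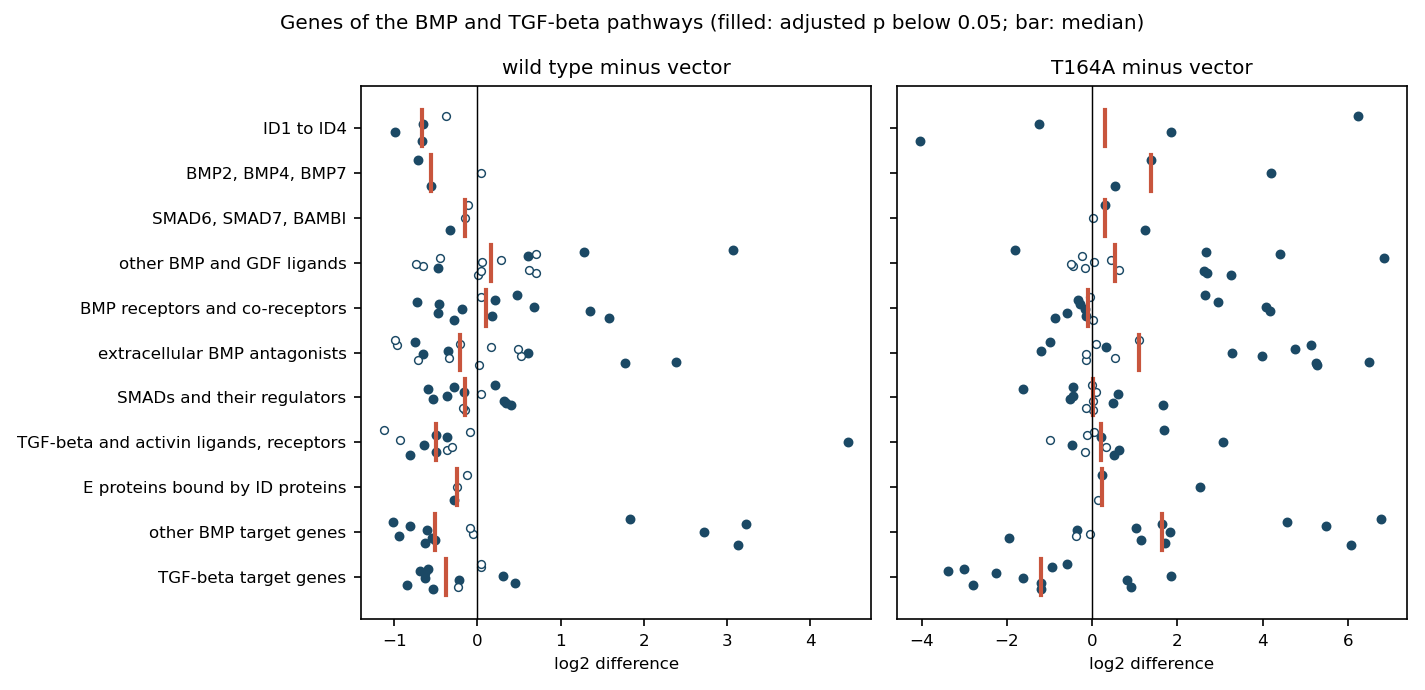
Difference from vector (log2 units, horizontal axis) of each gene of the 3 sets of members and 8 related lists, for wild type and for T164A. Filled points have an adjusted p below 0.05 (limma) and the red bar is the median of the list. In T164A minus vector the extracellular antagonists have a median of 1.09 and the TGF-beta target genes one of -1.20.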

How the data were processed

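Poly-A RNA was made into TruSeq libraries and read on an Illumina HiSeq (per the labels' protocols). Among tools, the submitters' processing notes list TopHat2 2.0.4, CASAVA 1.8.2, DESeq and Cufflinks 2.0.2, with GRCh37 as build and no roles or order. The authors deposited 1 table of log2 values; their transformation is not stated in the sources used. Above 11.5, 2 raised to the value, less a constant of 1.89, is a multiple of 1 step per library (100% of values, tolerance 0.05 steps), the form of reads divided by a size factor. Between 10 and 10.5 only 8.29% to 11.4% are, so the form of the scale at low levels is not known, no reads are given for low values, the floor is nominal, and no count test was run. Floors cover counting error only.

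Of 21594 rows, 1732 shared 304 symbols; the row with the highest mean was kept. All 16 libraries entered 1 limma model (limma 3.58.1, R 4.3.3, variance trend, 13 residual degrees of freedom, two-sided, Benjamini-Hochberg over 20166 symbols). The code was run on simulated data with independent scatter between libraries, which cannot show how a shared culture would affect the p-values. No filter on low values was applied. Replicate numbers differ between groups, and no label names a batch: any batch confounded with a group cannot be told apart from it. Within groups, libraries with a root mean square difference below 0.5 of the largest in the group, over 8842 symbols with a mean of at least 8, were taken as close, directly or through a chain of such pairs (vector 1 with 2 and 4 with 6, wild type 13 with 15 to 18, T164A 91 with 92 and 94); no 2 libraries held identical values. Such libraries may share a culture, so p-values may be too small.

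The genes, lists and motifs were chosen with earlier results of these data, or the sequences, in view. From each related list, up to 3 called genes per direction and comparison were eligible to be named, those with the smallest adjusted p and a mean of at least 6 in the higher group; SMAD1 and SMAD5 were named beside SMAD9 after their values were seen. Levels per kb use the union of exons of protein-coding transcripts in GENCODE 29. These levels and the summed marker levels take 2 raised to the value, less 1.89, also below 11.5, where that form is not established. Promoter windows come from RefSeq on GRCh38.p14, where 8 of the 10 genes have an entry; the table's own build is GRCh37 and no coordinates of it are used. The gene carried by the constructs and 1 marker are not reported here by name.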

Additional observations from a re-analysis of the deposited data

Results flagged for a closer look

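Of 30 sets of values (10 genes in 3 groups), 1 held a library far from the others of its group, where chance flags about 1 in 20. SMAD7 was at 8.47 in T164A replicate 91, and the nearest other library of that group was at 8.32, a gap that is 0.841 of the whole range of the group. Without that library the difference of SMAD7 from vector was -0.01 (limma adjusted p = 0.968), against 0.03 with it.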

How the results depend on the processing

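Of 580 alternative values for single genes, 556 kept their direction and their side of the threshold, 5 lost a call, 8 gained one and 11 turned sign, all 11 of them in SMAD7, BAMBI or BMP4. The calls on ID1, ID2, ID3, BMP2 and BMP7 in all comparisons, and those on ID4, BMP4 and SMAD6 that involve T164A, held under every alternative run. BMP4 in wild type minus vector turned to -0.31 under quantile normalization and -0.15 with array weights, and to -0.05, -0.07, -0.19 and -0.01 without wild-type replicates 13 and 14 and vector replicates 2 and 3 (range over single libraries left out -0.19 to 0.18). SMAD7 in T164A minus vector turned to -0.27 under quantile normalization, -0.10 without vector replicates 3, 4 and 6, -0.01 without T164A replicate 91 and -0.02 without vector replicate 3 (range over single libraries left out -0.02 to 0.09), and BAMBI there to -0.06 under quantile normalization. BAMBI was not called under a minimum fold of 1.2 in T164A minus vector (limma adjusted p = 0.48) or in wild type minus T164A (limma adjusted p = 0.0824). In wild type against vector, 9183 symbols were called, 4091 under a minimum fold of 1.2 and 4383 with close libraries averaged, which leaves fewer samples. Quantile normalization moved the share of called symbols that were higher to 38.1%, against 46.2%, in wild type minus vector, to 47.2%, against 57.7%, in T164A minus vector, and to 51.4%, against 43.2%, in wild type minus T164A, where it moved the median by 0.14. The cause of these changes was not tested. No paired analysis was possible because the groups share no replicate numbers. BMP4 and ID4 lie near the nominal floor in wild type and vector, which limits those values.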

Other observations

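The symbols whose values followed each gene most closely over the 16 libraries were taken from those with a mean of at least 6, by Pearson's r, as a description; the libraries form 3 groups, so r mostly reflects the 3 group levels. For ID1 they were KRT80, ZNF750 and CCDC64 (each r = 0.998), for ID2 AURKA (0.995), FOXC1 (0.989) and BORA (0.989), for ID3 SLC3A2 (0.985), CAPN1 (0.984) and AVPI1 (0.983), and for ID4 GINS2 (0.996), KLHL13 (0.994) and AATF (0.993). For BMP2 they were PAK1 (0.992), SERPINE2 (0.988) and PDLIM1 (0.987), for BMP4 PRKCA (0.981), AURKB (0.976) and CENPO (0.976), and for BMP7 TCOF1 (0.994), CDKN2A (0.993) and TIMP1 (0.992). For SMAD6 they were SERPINH1 (0.992), NCKAP5L (0.987) and CCDC8 (0.985), and for BAMBI RNASEH1 (0.965), GDPD5 (0.965) and TMEM41A (0.960). SMAD7, called in none of the comparisons, had the lowest values, with TMEM203 (0.844), LRFN4 (0.822) and MKL1 (0.808).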
